A study of Homo sapiens with 2 samples.

Results

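The genes described here are 8 G protein alpha subunits, GNAS, GNAI1, GNAI2, GNAI3, GNAQ, GNA11, GNA12 and GNA13, and the 2 beta-arrestins, ARRB1 and ARRB2. They were chosen by symbol, each symbol was matched to 1 gene identifier, and all 10 had a row among the 57736 genes measured. The samples were 2 replicates of HEK293T cells, a human embryonic kidney line carrying the SV40 large T antigen, labelled wild type and grown in DMEM with serum at 37°C, with no treatment named. Poly(A)+ RNA was read in 50 nt reads, and the estimated counts added up to 10593491 in replicate 1 and 10104118 in replicate 2. The replicates belong to 1 group, so there was no contrast between conditions, and nothing in the labels says whether they came from separate cultures. Any p-value sets the difference between these libraries against the sampling of reads only, and that difference may be technical. The label gives kidney as the tissue, but while the nephron markers LRP2 and PAX2 were detected, UMOD, AQP2, SLC34A1 and CDH16 had 0 counts in both replicates. At this depth a gene with no counts may still have had up to 3, which is 0.283 CPM in replicate 1 and 0.297 CPM in replicate 2, for counting error only.

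G protein-coupled receptors signal through heterotrimers of an alpha, a beta and a gamma subunit. The activated receptor makes the alpha subunit exchange GDP for GTP, and the alpha subunit then decides which effector is reached. Gs stimulates adenylyl cyclase, Gi inhibits it, Gq and G11 activate phospholipase C beta, and G12 and G13 act on RhoGEFs, exchange factors that activate small GTPases. Beta-arrestins bind receptors that have been phosphorylated by receptor kinases, uncouple them from the G protein and link them to clathrin and its adaptor AP2 for uptake. HEK293T cells are widely used to express cloned receptors, and their own alpha subunits and arrestins are the partners such receptors meet.

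The last codons of an alpha subunit form the end of the helix that inserts into the receptor, and in the Gi proteins the fourth codon from the end is the cysteine that pertussis toxin modifies. The last 30 coding bases before the stop codon are printed for the 8 alpha subunits, read from the GRCh37 genome along the coding exons of the canonical GENCODE transcript, because they show which genes belong together. Capitals mark the fourth codon from the end.
GNAS: cgcatgcaccttcgtcagTACgagctgctc
GNAI1: aaaaataatctaaaagatTGTggtctcttt
GNAI2: aagaacaacctgaaggacTGCggcctcttc
GNAI3: aaaaacaacttaaaggaaTGTggactttat
GNAQ: cagttgaacctgaaggagTACaatctggtc
GNA11: cagctcaacctcaaggagTACaacctggtc
GNA12: caggagaacctgaaggacATCatgctgcag
GNA13: catgacaacctcaagcagCTTatgctacag
All 3 Gi genes carried a cysteine codon in capitals (TGT or TGC), and the other 5 genes carried TAC, ATC or CTT there. GNAQ and GNA11 shared 26 of these 30 bases, the most of any pair of alpha subunits, and GNAS and GNAI3 shared 9, the fewest. Within a family 21 to 26 of the bases were identical, and between families 9 to 20.

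Over the whole coding sequence the same grouping was seen. Identity was 63.6% to 80.9% in the 5 pairs of alpha subunits of one family and 49.1% to 62.6% in the 23 pairs across families, with GNAI1 and GNAI3 the closest pair. ARRB1 and ARRB2 were 70.6% identical. These values are identical columns of a global alignment that counts gaps, and they describe the reference genome rather than these cells.

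**Figure D1:**
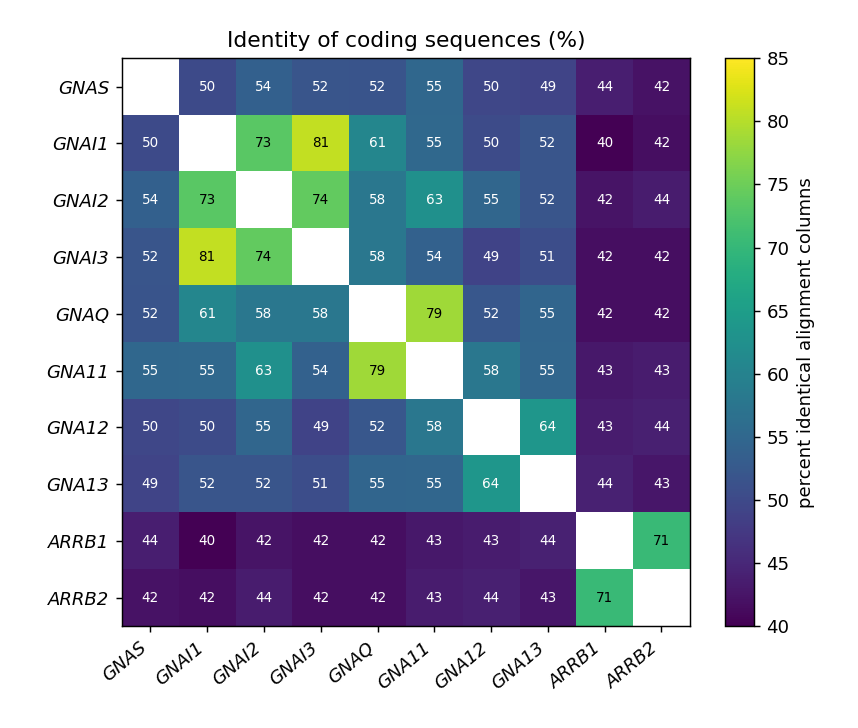
Percent identity of the coding sequences of each pair of the 10 genes (GRCh37, canonical transcripts, global alignment), as colour and number. The Gi genes, GNAQ with GNA11, GNA12 with GNA13 and the beta-arrestins form the brighter blocks, from 63.6% for GNA12 with GNA13 to 80.9% for GNAI1 with GNAI3.

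How well 50 nt reads can tell these relatives apart depends on the longest stretch they have in common. Within the coding sequences the longest run of identical bases between any pair of the alpha subunits was 47 nt, shorter than a full read, and it belonged to GNA12 and GNA13. The next was 35 nt, between GNAS and GNAI3. Both runs are printed because they are the longest that the coding sequences of different alpha subunits share. Outside the coding sequence GNAI2 and GNA11 share full stretches of 50 bases, as given below. Capitals mark the 8 codons of the P-loop, the motif that holds the phosphates of the bound nucleotide.
GNA12 and GNA13: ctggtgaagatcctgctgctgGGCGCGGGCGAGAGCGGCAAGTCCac
GNAS and GNAI3: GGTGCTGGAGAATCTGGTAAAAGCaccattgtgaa
The P-loop motif was found exactly once in each of the 8 alpha subunits and in 0 of the 2 beta-arrestins. The whole first run, with the motif inside it, lies in exon 1 of both genes. Its positions are chr7:2883581-2883627 for GNA12 and chr17:63052524-63052570 for GNA13, both on the minus strand. The second run begins in exon 1 and ends in exon 2 of both genes, so its positions include an intron, from 57466920 to 57470700 on chromosome 20 for GNAS and from 110091460 to 110116392 on chromosome 1 for GNAI3. A read trimmed to under 47 nt could still fit both GNA12 and GNA13 there.

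All 10 genes were detected, with detection set as a TPM (a transcript level scaled by transcript length and by the library's total) of at least 1 in both replicates. Of all genes 27.7% were detected, and of protein-coding genes 63.7%. Levels are compared between genes as TPM unless another measure is named, and mRNA levels do not give the amount of protein.

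GNAS, which encodes the Gs alpha subunit, was the highest of the 10. It lies on chromosome 20 from 57414773 to 57486247 on the plus strand of GRCh37, and its last coding bases are at chr20:57485852-57485881 in exon 13 of 13. Its TPM was 868 in replicate 1 and 823 in replicate 2, a mean of 845 ± 31.8 (SD, n = 2), from 10723 and 9803 estimated counts. It ranked 105 among the 12345 detected protein-coding genes, and was above ARRB2, the next of the 10 genes, by 9.55-fold in replicate 1 and 9.00-fold in replicate 2. The level is a sum over 57 listed transcripts. The GNAS locus is known for several promoters that give different first exons, among them transcripts for XLαs and NESP55, and a value per gene cannot tell them apart. The mean transcript length behind the value, weighted by abundance, was 1704 nt and 1707 nt, against 4027 nt for the longest annotated transcript. GNAS-AS1, which overlaps 1127 nt of GNAS exons on the other strand, had 19 and 15 counts.

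The Gi genes followed in the order GNAI2, GNAI3, GNAI1. GNAI2, on chromosome 3 from 50263724 to 50296794, had a TPM of 62.8 and 59.7, a mean of 61.2 ± 2.19 (SD, n = 2). GNAI3, on chromosome 1 from 110091237 to 110142817, had 34.9 and 36.2 TPM, a mean of 35.5 ± 0.884 (SD, n = 2). GNAI1, on chromosome 7 from 79397344 to 79855497, had 22.0 and 20.1 TPM, a mean of 21.1 ± 1.32 (SD, n = 2). The ranges of the 3 genes did not overlap, and GNAI2 was 1.72 ± 0.105-fold above GNAI3 and 2.91 ± 0.0786-fold above GNAI1 in TPM (SD, n = 2). The step from GNAI3 to GNAI2 varied with the length used, being 1.17-fold and 1.07-fold in estimated counts, while over the longest annotated transcript GNAI2 had 236 and GNAI3 90.8 counts per kb. Their last coding bases, with the cysteine codon, are at chr3:50295090-50295119 for GNAI2, chr1:110134823-110134852 for GNAI3 and chr7:79846777-79846806 for GNAI1, each in exon 8. GNAI1 stood at percentile 49.7 of the detected protein-coding genes, near their median, and GNAI2 at percentile 80.3.

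Of the Gq family, GNA11 was higher than GNAQ. GNA11 lies on chromosome 19 from 3094360 to 3123997 on the plus strand and had a TPM of 54.1 and 48.5, a mean of 51.3 ± 3.90 (SD, n = 2). GNAQ lies on chromosome 9 from 80331013 to 80646727 on the minus strand and had a TPM of 24.9 and 25.7, a mean of 25.3 ± 0.544 (SD, n = 2). Every GNA11 value was above every GNAQ value, and the ratio was 2.17 in replicate 1 and 1.89 in replicate 2. The size of this step varied with the length used, being 1.49-fold and 1.40-fold in estimated counts. Over the longest annotated transcript GNA11 had 327 and GNAQ 137 counts per kb. Their last coding bases are at chr19:3121145-3121174 for GNA11 and chr9:80336242-80336271 for GNAQ, in exon 7 of 7 of both.

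The G12 family was nearly balanced in TPM. GNA13, on chromosome 17 from 63005407 to 63052858 on the minus strand, had a TPM of 26.0 and 29.1, a mean of 27.6 ± 2.15 (SD, n = 2). GNA12, on chromosome 7 from 2767739 to 2883942 on the minus strand, had 24.2 and 22.6 TPM, a mean of 23.4 ± 1.12 (SD, n = 2). In TPM, GNA13 was above GNA12 by 1.08-fold in replicate 1 and 1.29-fold in replicate 2, and the ranges did not overlap. In estimated counts GNA13 was above GNA12 by 1.23-fold and 1.45-fold. Over the longest annotated transcript the direction turned, with 138 ± 5.66 counts per kb for GNA12 and 129 ± 9.62 for GNA13 (SD, n = 2), and there the ranges did overlap. That measure divides counts made on the authors' annotation by lengths from the annotation used here, so the turn may come from mixing them, which was not tested. Their last coding bases are at chr17:63010378-63010407 and chr7:2770818-2770847, in exon 4 of 4 of both.

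Added up by family, the mRNAs of the alpha subunits were mostly GNAS. GNAS, the Gs gene, made up 77.5% ± 0.304 of the summed TPM of the 8 genes and the Gi genes 10.8% ± 0.123 (SD, n = 2). GNAQ and GNA11 made up 7.02% ± 0.0711 and GNA12 and GNA13 4.67% ± 0.252 (SD, n = 2). The sum was 1117 TPM in replicate 1 and 1065 in replicate 2. Without GNAS the other 7 genes came to 245 ± 4.96 TPM (SD, n = 2). The share of GNAS depends on how length is treated, and was 64.3% in estimated counts, which are not scaled by length. It takes in every transcript of the gene, such as those for NESP55, and so is not the share of Gs mRNA alone.

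**Figure D2:**
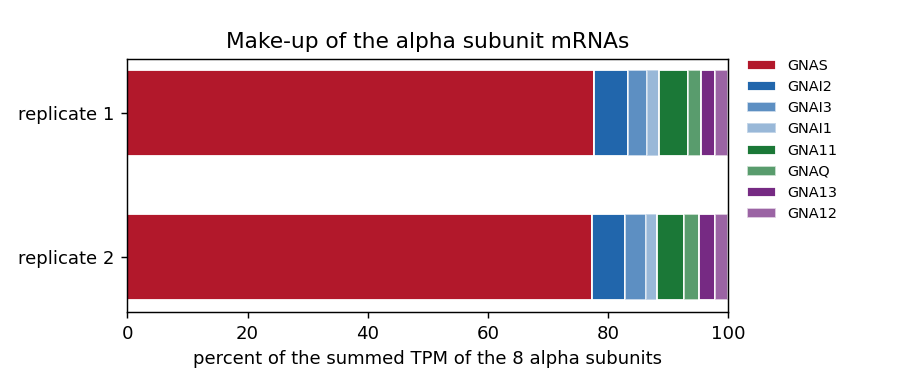
Share of each alpha subunit in the summed TPM of the 8 genes, as percent, for each replicate; colours give the family and shades the genes within it. GNAS fills 77.7% of the bar in replicate 1 and 77.3% in replicate 2, and the order of the families is the same in both.

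ARRB2, which encodes beta-arrestin 2, was far above ARRB1, which encodes beta-arrestin 1. ARRB2 lies on chromosome 17 from 4613891 to 4624794 on the plus strand and had a TPM of 90.9 and 91.4, a mean of 91.2 ± 0.361 (SD, n = 2). ARRB1 lies on chromosome 11 from 74971166 to 75062749 on the minus strand and had a TPM of 10.2 and 9.31, a mean of 9.77 ± 0.651 (SD, n = 2). The ratio of ARRB2 to ARRB1 was 8.89 in replicate 1 and 9.82 in replicate 2. ARRB2 ranked second of the 10 genes and ARRB1 last, and ARRB1 stood at percentile 29.4 of the detected protein-coding genes.

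The size of this ratio varied with the measure. ARRB1 had 165.74 and 141.16 estimated counts, so the ratio of ARRB2 to ARRB1 in counts was 5.25 and 6.05. The deposited posterior mean TPM of ARRB1 was 14.2 and 13.1, above its TPM in both replicates, and gave ratios of 6.21 and 6.71. Its weighted transcript length was 2219 nt and 2160 nt, whereas its 12 matched transcripts run from 308 nt to 7352 nt in the annotation used here. Scaled by the longest transcript of each gene the log2 ratio of ARRB1 to ARRB2 was -4.54, against -3.22 in TPM. ARRB2 was the higher gene in each of these measures.

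Ranked by mean TPM, the order was GNAS, ARRB2, GNAI2, GNA11, GNAI3, GNA13, GNAQ, GNA12, GNAI1 and ARRB1. The replicate ranges did not overlap for 9 of 9 neighbours or for any of the 45 pairs. Among all pairs of detected protein-coding genes 94.6% did not overlap, so this count says little about these genes. With 2 values against 2 an exact permutation test cannot give a two-sided p below 0.333, and none was run. The posterior intervals deposited with the TPM are another measure, and by them 4 of 9 neighbours were apart. They surround the posterior mean and not the TPM. In posterior mean TPM the replicate ranges of 8 of 9 neighbours did not overlap. No share over all genes is given for these counts. By the intervals GNAI2 and GNA11 overlapped, and so did each step from GNA13 through GNAQ and GNA12 to GNAI1 and from GNAI1 to ARRB1. The interval of ARRB1 in replicate 1 ran from 10.8 to 17.6 TPM, above its TPM of 10.2. GNA13 was above GNAQ by 0.370 TPM, counting from the lower value of the one to the higher value of the other, GNAQ above GNA12 by 0.700 and GNA12 above GNAI1 by 0.610. By these intervals no neighbours among GNA13, GNAQ, GNA12 and GNAI1 were apart.

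**Figure D3:**
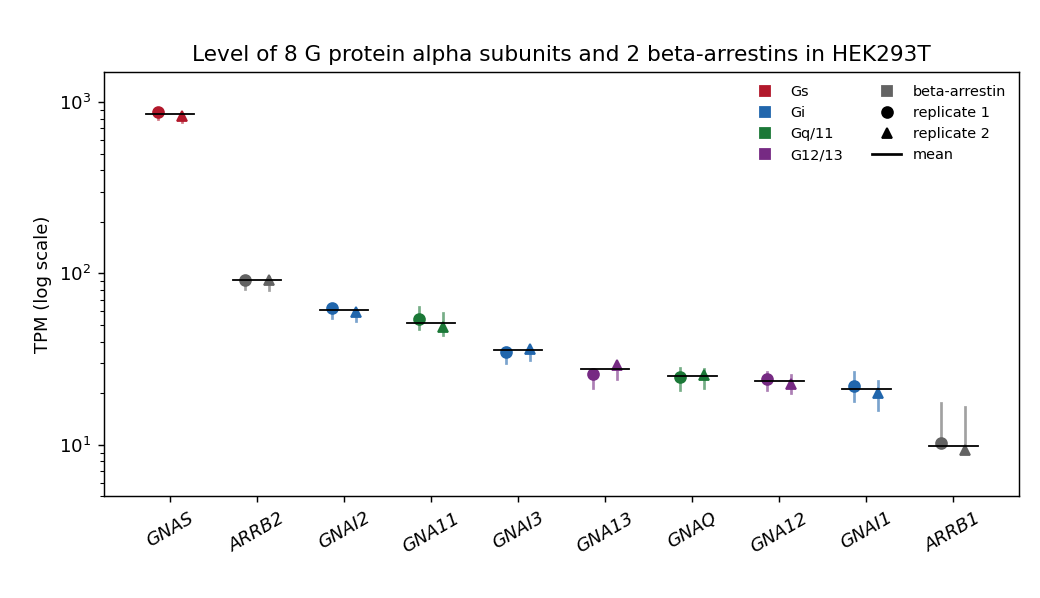
TPM (log axis) of the 10 genes in replicate 1 (circles) and replicate 2 (triangles), ordered by the mean (black line); vertical bars are the deposited posterior intervals, and colours give the family. GNAS stands at 868 and 823 TPM, ARRB2 at 90.9 and 91.4, and ARRB1 is lowest at 10.2 and 9.31, below its own interval in both replicates.

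The TPM lay inside its own posterior interval in 14 of 20 cases, and the share over all genes is not given here. The other 6 were both replicates of GNAS and GNAI3, which were above the interval, and of ARRB1, which was below it. For GNAS in replicate 1 the interval ran from 800 to 842 TPM, and for ARRB1 from 10.8 to 17.6 TPM. The deposited intervals surround the posterior mean and not the TPM.

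For each gene the rounded counts of the replicates were set against TMM-scaled library sizes in a two-sided exact binomial test, with Benjamini-Hochberg adjustment over 17920 genes. The test asks whether these libraries differ by more than the sampling of reads. Of all genes tested 3.88% differed at an adjusted p of 0.05, and of the 10 genes 1 did. GNA13 had 765 counts in replicate 1 and 850 in replicate 2, 1.17-fold more after scaling, which is 0.23 on the log2 scale with a 95% exact binomial interval from 0.09 to 0.37, and the adjusted p of the exact binomial test was 0.0401. This call was lost under each of 5 other settings, where the adjusted p of the same exact test ran from 0.0537 to 0.0980. GNAS had the narrowest interval, from -0.09 to -0.01 around -0.05, and an adjusted p of 0.158 in the exact test. With RLE size factors its adjusted p in the exact test was 0.00939 at a log2 ratio of -0.07. The intervals of the other 8 genes included 0. The median size of the difference was 0.05 on the log2 scale over the 10 genes, whose counts summed over both replicates were 307 or more, and 0.13 over all genes tested. Over the 11885 genes whose summed count was 100 or more it was 0.09.

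**Figure D4:**
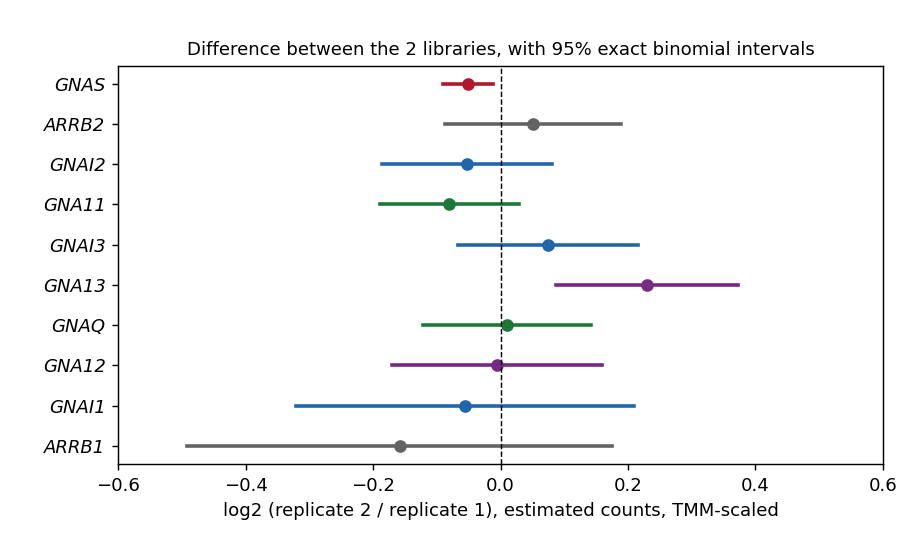
Log2 ratio of replicate 2 to replicate 1 in estimated counts with TMM-scaled library sizes, for each gene, with 95% exact binomial intervals that cover counting error only. GNA13, at 0.23, and GNAS, at -0.05, are the genes whose interval leaves out 0, and ARRB1, with the fewest counts, has the widest interval.

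Reads that fit more than 1 gene are divided between genes in the estimated counts. The estimated counts were whole numbers in both replicates for 7 of the 10 genes, and GNAQ, GNA11 and ARRB1 were the exceptions. Over all genes, 43.9% of the counts in replicate 1 and 45.0% in replicate 2 lay in genes with a whole count. A whole count does not show that no read was shared, and GNAS, with whole counts, had a posterior SD of 1.24 and 1.19 counts. The posterior SD of the count was at most 2.65 counts, which is 0.205% of the GNA11 count in replicate 2 and at most 1.14% for ARRB1. GNAQ shared 285 of its 1028 coding stretches of 50 bases (27.7%) with GNAQP1, a processed pseudogene on chromosome 2 from 132181374 to 132182440. GNAQP1 was given 2.95 counts in replicate 1 and 16.52 in replicate 2, against 966 and 922 for GNAQ. GNA11 shared 35 of its 1028 coding stretches (3.40%) with other genes on the same strand and 97 (9.44%) with genes on the opposite strand. GNAI3 shared none of its coding stretches but 638 of all its stretches (7.09%), and 504 of these were shared with an overlapping lncRNA, ENSG00000225113, that had 4 and 2 counts. The GNAI3 stretches were taken from a transcript of 9044 nt, against 3206 nt in the deposited table. The GNAI3 counts were whole numbers with a posterior SD of 0 in both replicates. GNAI2P1 and GNA13P1 had 0 counts in both replicates, and GNAI2P2 had 1 in replicate 1. GNAI2 shared 135 of all its 7529 stretches (1.79%) with other genes on the same strand. Outside the coding sequence GNAI2 and GNA11 had 22 stretches of 50 bases in common. The strand setting of the counting is not given here, so reads of antisense genes cannot be told apart from those of the genes they overlap. The genes that overlap exons of the 10 on the other strand had at most 19 counts. Of all stretches, GNA11 shared 11.5%, GNAS 7.19% and ARRB1 5.71% with genes on the opposite strand, overlapping or not. The counts of all those genes are not given here.

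The other genes of the pathway were read from lists by role. Of 92 such genes 66 (71.7%) were detected, against 63.7% of protein-coding genes. The lists were chosen by role and not matched to other genes, so the share is a description.

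The remaining alpha subunits added little. Of 8, only GNAZ, GNAL and GNAT2 were detected. GNAZ, a member of the Gi class that pertussis toxin does not modify, had 11.7 TPM in both replicates, and GNAL, the olfactory relative of GNAS, had 12.1 and 9.20. GNAT2, the cone transducin, had 1.59 ± 0.262 TPM (SD, n = 2). GNAO1, abundant in neurons, had 1.33 and 0.720 TPM and so passed in 1 replicate only. GNA14 and GNA15, the other members of the Gq family, had at most 5 counts, and GNAT1 and GNAT3 had 0 counts. The 8 genes studied held 97.7% ± 0.182 of the TPM of all 16 alpha subunits (SD, n = 2).

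The partners of the alpha subunit were led by a few genes. All 5 beta subunits were detected, with GNB1 at 248 and 220.04 TPM, GNB2 at 125 ± 9.90 TPM, GNB4 at 15.9 ± 1.97, GNB5 at 9.33 ± 1.32 and GNB3, the lowest, at 6.65 ± 0.240 (SD, n = 2). Of 12 gamma subunits 9 were detected, from GNG5 at 174 ± 3.66 TPM to GNG3 at 1.64 ± 0.0424 (SD, n = 2), and GNG5 held 67.3% of the TPM of the list. The alpha subunit genes, with all transcripts of GNAS, together had 2.86 ± 0.114 times the TPM of the beta subunits (SD, n = 2). Without GNAS they had 0.695 ± 0.0322 times as much. RIC8A, a chaperone of Gi, Gq and G12 alpha subunits, had 66.7 ± 2.21 TPM, RIC8B, which serves Gs, 14.95 ± 0.424, and PDCL, which helps to assemble the beta and gamma subunits, 20.6 ± 2.47 (SD, n = 2).

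The effectors of each family were present. Of 9 adenylyl cyclases, the target of Gs and Gi, 6 were detected, from ADCY3 at 52.2 ± 3.79 TPM to ADCY5 at 1.41 ± 0.375 (SD, n = 2). All 4 phospholipase C beta genes, the target of Gq, were detected, with PLCB3 at 16.5 ± 0.346 TPM, PLCB1 at 8.50 ± 0.453, PLCB4 at 4.44 ± 0.820 and PLCB2 at 3.02 ± 1.17 (SD, n = 2). The RhoGEFs reached by G12 and G13 were all detected as well, with ARHGEF12 at 41.6 ± 1.79 TPM, ARHGEF1 at 32.9 ± 2.90 and ARHGEF11 at 18.9 ± 1.78 (SD, n = 2). Protein kinase A is the main sensor of cyclic AMP, and the 6 listed genes for its subunits were all detected. Its regulatory subunits were PRKAR1A at 156 ± 6.12 TPM, PRKAR2A at 114 ± 6.50, PRKAR1B at 18.3 ± 5.04 and PRKAR2B at 11.9 ± 1.75, and its catalytic subunits PRKACA at 101 ± 1.06 and PRKACB at 12.8 ± 1.53 (SD, n = 2). Of 20 RGS genes, whose proteins speed up GTP hydrolysis by alpha subunits, 10 were detected, with RGS10 highest at 23.1 ± 3.70 TPM and RGS3 lowest at 1.64 ± 0.276 (SD, n = 2).

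On the arrestin side, SAG and ARR3, the visual arrestins of photoreceptors, were not detected and had at most 6 counts in a replicate. Of 7 receptor kinases 5 were detected. GRK6 had 64.3 ± 4.31 and GRK2 50.2 ± 6.02 TPM, followed by GRK3 at 9.85 ± 1.32, GRK4 at 9.38 ± 2.10 and GRK5 at 7.59 ± 1.35 (SD, n = 2), while GRK1 and GRK7, the kinases of the retina, had at most 1 count. The 8 listed genes of clathrin and AP2 were all detected. CLTC, the clathrin heavy chain, had 283 ± 3.61 TPM, and the light chains CLTA and CLTB had 179 ± 10.3 and 59.8 ± 6.29 (SD, n = 2). Of the AP2 subunits, AP2M1 had 167 ± 1.24 TPM, AP2S1 144 ± 4.74, AP2A2 111 ± 4.56, AP2B1 69.7 ± 3.92 and AP2A1 52.4 ± 1.27 (SD, n = 2). Of the 6 alpha-arrestins listed, distant relatives of the beta-arrestins, 1 was not analysed here and 4 of the other 5 were detected. ARRDC1 had 32.9 ± 3.01 TPM, with ARRDC4 at 10.7 ± 0.608, ARRDC3 at 5.18 ± 0.573 and ARRDC2 at 5.14 ± 0.134 (SD, n = 2), and ARRDC5 had 0 counts.

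**Figure D5:**
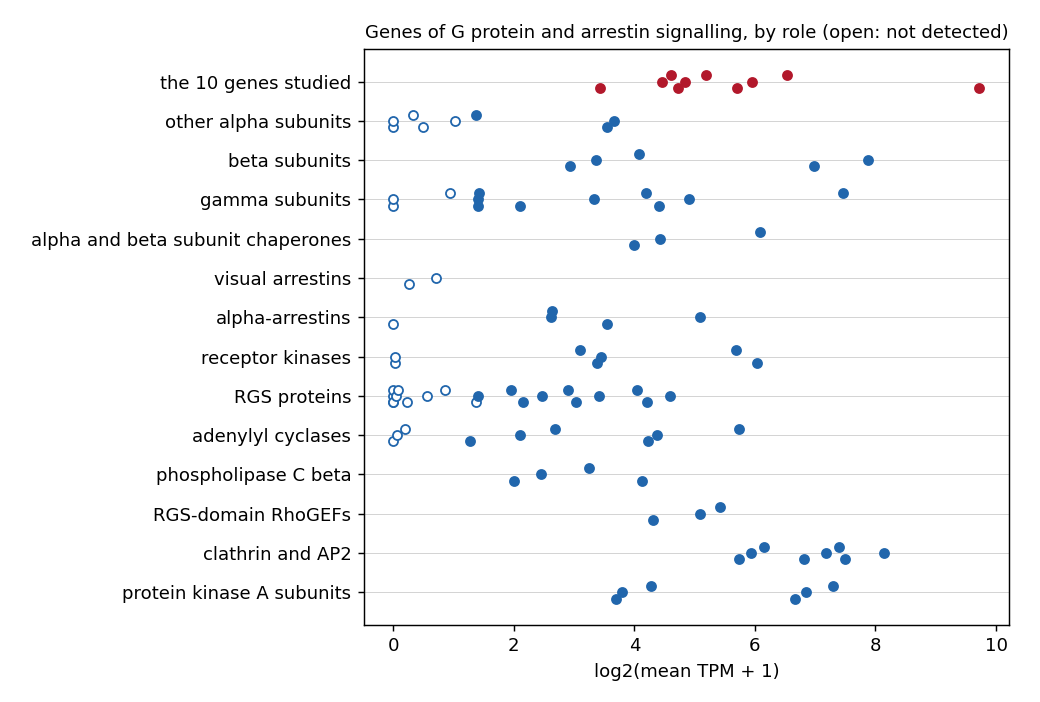
Level of each gene as log2(mean TPM + 1) over both replicates, by role; the 10 genes studied are red, other genes blue, and open circles did not reach a TPM of 1 in both replicates. GNAS is the highest gene of the plot, clathrin and AP2 genes lie together at 52.4 TPM or more, and the visual arrestins lie near 0.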

How the data were processed

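RNA-Seq of 2 HEK293T replicates was analysed as deposited. Per the labels, the authors trimmed reads with Trimmomatic 0.36, aligned them with STAR 2.6.1c to hg19 and quantified genes with RSEM 1.3.1. The study's methods name featureCounts and Ensembl release 87 instead, whereas the table columns are those of RSEM. Estimated counts were deposited with a read that fits several genes divided between them. TPM values deposited by the authors correct for transcript length, and so do the deposited FPKM values. The posterior SD and interval bounds are scores deposited by the authors. A table of pooled reads was used only as an alternative.

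Symbols, GRCh37 positions and sequences came from GENCODE release 44 mapped to GRCh37, which matched 96.1% of gene identifiers. Its transcripts can be longer than those the authors used (GNAI3 has 9044 nt against 3206 nt in the deposited table). Counts were rounded, scaled by edgeR 4.0.16 and compared with scipy 1.17.1 over genes with at least 10 summed counts. Tested on simulated Poisson counts of 17969 genes, the comparison recovered 176 of 200 genes changed 1.5-fold, with 4 other calls. Poisson counts vary by the sampling of reads only, which is what the test assumes. The 4 calls therefore do not give the rate of calls between real libraries. No quasi-likelihood test was possible without a second group. Coding sequences were aligned with Biopython 1.88 (match 1, mismatch -1, gap opening -5, extension -0.5). The P-loop was searched in frame on the coding strand.

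The genes and lists were chosen with earlier results of these data known. By the rule, a gene is named where its list had up to 8 members, where it was the highest or lowest detected of a longer list, or where it overlapped or shared 50-base stretches with the 10 genes; GNAI2P1, GNAI2P2 and GNA13P1 are named as their pseudogenes. Nephron markers at 0 counts were named after their values were seen, and blood and fibroblast markers are given as counts only. With 2 samples no likeness of pattern was computed. Lists of blood and fibroblast markers had 1 of 4 and 1 of 4 genes detected, and some other marker results are not reported here. Of 93 pathway genes listed, 1 alpha-arrestin was not analysed here. Alternatives were other thresholds, units, normalizations, filters and lengths, and leaving out each replicate.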

Additional observations from a re-analysis of the deposited data

How the results depend on the processing

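No paired analysis was possible because both libraries belong to 1 group. All 10 genes stayed detected at each threshold tried and without either replicate, and the pathway count of 66 ran from 52 with a TPM of at least 5 to 75 with a TPM of at least 0.1. The number of the 10 genes that differed between the libraries was 0 with total counts, without a filter, with posterior mean counts and, for the 7 genes then tested, with whole counts only, and 1 with RLE size factors, where the gene was GNAS and not GNA13. Of all genes tested, 752 of 17920 differed with RLE size factors and 704 of 17920 with total counts. It was 564 of 30700 without a filter, 448 of 18205 with posterior mean counts and 71 of 8675 with whole counts only. At an unadjusted p of 0.05 in the exact binomial test, 2 of the 10 genes differed under each setting, or 2 of 7 with whole counts only. With TMM-scaled library sizes 2377 of all 17920 genes did, so these counts are a description. In counts not scaled by length, the Gi share was 12.4% and that of GNAS 64.3%. The GNAS share was 77.1% in posterior mean TPM and 69.3% over the longest transcript. The log2 ratio of ARRB1 to ARRB2 was -2.69 in posterior mean TPM, -2.49 in counts and -4.54 over the longest transcript. Posterior intervals left 4 neighbours apart in place of 9, and posterior mean TPM left 8. Leaving out each replicate gave 77.3% to 77.7% for GNAS, 10.7% to 10.9% for Gi and -3.30 to -3.15 for the arrestins. The causes were not tested where construction does not show them. Depth limits ARRB1 most, with the fewest counts of the 10.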

Other observations

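The order of the 10 genes was the same in TPM, posterior mean TPM and FPKM. Scaled by the longest annotated transcript, 4 of the 10 genes kept their place. GNA11 passed GNAI2 (327 against 236 counts per kb), GNA12 passed GNAQ and GNA13 (138 against 137 and 129), and GNAI3 moved from the fifth to the eighth place, since its only listed transcript has 9044 nt in the annotation used here against 3206 nt in the deposited table. In counts not scaled by length, GNA11 and GNAQ came directly after GNAS and ahead of ARRB2. In the table of pooled reads the authors' count was within 2 counts of the sum of the replicates for each of the 10 genes.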
